A study of Mus musculus with 9 samples.

Results

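Glucose enters the cell and is committed to glycolysis through 3 steps, and 10 genes of these steps are described here. They are the glucose transporters Slc2a1, Slc2a3 and Slc2a4, the hexokinases Hk1 and Hk2, the phosphofructokinase subunits Pfkm, Pfkl and Pfkp, and Pfkfb2 and Pfkfb3, whose enzymes make the activator of phosphofructokinase. They are defined by gene name, and are 10 of the 18738 genes in the deposited table. The minimum for testing was a mean level of 1 TPM, which all 10 reached, as did 13655 genes in all. TPM is a level per transcript length relative to the library total, so that levels of different genes of a library can be set side by side.

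Cardiomyocytes, the contractile cells of the heart, were isolated on postnatal day 0 (P0) from wild-type (WT) C57BL/6J pups and measured by RNA-seq. Pregnant mothers received a high-fat diet (HFD), a slight high-fat diet (sHFD) or the normal diet (ND), assigned at random, between fertilization and delivery, and each diet has 3 libraries. The pups of all 3 groups share genotype, strain and age, and differ in what the mother ate. The series ties the comparison to cardiomyocyte proliferation after a maternal high-fat diet. Whether libraries are of different litters or pups, or of pooled hearts, is not in the labels, so p-values speak of the variation among these 9 libraries only, and that variation may be technical. They do not give the fat content of the diets. Because diet was given to the mother, pups of a litter share it.

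The fetal heart lives largely on glucose and lactate and turns to fatty acids after birth. GLUT1, encoded by Slc2a1, carries glucose into the cell without need of insulin and is the main transporter of the fetal heart, whereas GLUT4, encoded by Slc2a4, is moved to the cell surface by insulin and predominates in adult muscle. Hexokinase traps glucose as its phosphate, and phosphofructokinase makes the committed step of glycolysis at a rate set in part by the activator from the Pfkfb enzymes. That activator is a fructose bisphosphate distinct from the product of phosphofructokinase.

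Windows of 300 bases around annotated start sites, 250 before and 50 after, were available from RefSeq (GRCm38.p6) for 8 of the 10 genes, 15 windows in all. Those of Slc2a1 and Pfkfb3 are shown because Slc2a1 was the member that rose in HFD against both other diets and Pfkfb3 was the member with the largest difference between HFD and sHFD. Capitals mark ACGTG or GCGTG on either strand, the core bound by hypoxia-inducible factors, and each window is given 5′ to 3′ on the strand of its gene.
Slc2a1, chr4:119108495-119108794, plus strand: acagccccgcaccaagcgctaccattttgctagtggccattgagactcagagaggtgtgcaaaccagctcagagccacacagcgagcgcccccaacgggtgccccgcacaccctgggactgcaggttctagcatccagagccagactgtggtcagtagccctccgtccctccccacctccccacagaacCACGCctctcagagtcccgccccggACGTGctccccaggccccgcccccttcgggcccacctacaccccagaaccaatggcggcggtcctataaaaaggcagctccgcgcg
Pfkfb3, chr2:11553880-11554179, minus strand: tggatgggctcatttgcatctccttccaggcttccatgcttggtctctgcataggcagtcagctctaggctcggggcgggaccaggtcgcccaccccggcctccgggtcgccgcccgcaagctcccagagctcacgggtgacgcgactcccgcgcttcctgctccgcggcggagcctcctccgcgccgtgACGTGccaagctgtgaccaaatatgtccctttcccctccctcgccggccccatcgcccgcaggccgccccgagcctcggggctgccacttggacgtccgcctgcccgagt
Pfkfb3, chr2:11502041-11502340, minus strand: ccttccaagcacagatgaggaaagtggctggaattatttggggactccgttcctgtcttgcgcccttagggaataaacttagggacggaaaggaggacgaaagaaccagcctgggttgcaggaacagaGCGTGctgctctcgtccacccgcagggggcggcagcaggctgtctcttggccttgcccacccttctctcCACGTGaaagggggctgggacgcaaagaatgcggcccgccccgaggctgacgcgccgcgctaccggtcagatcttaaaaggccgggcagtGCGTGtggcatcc
The Slc2a1 window held 2 matches, at positions -61 and -36 from the start site. The upstream Pfkfb3 window held 1 match and the second window 4, of which a pair overlap in a CACGTG, the E-box letters read by Myc and ChREBP. Of the 15 windows, which are of 8 genes, 13 held a match and 3 held CACGTG. Some windows of the same gene overlap and can share a match, so they are not independent. Among 32851 promoter windows of the same length 43.8% held a match, 69.2% of those with at least 60% GC, and 7.15% held CACGTG. The Slc2a1 window was 65.3% GC and the Pfkfb3 windows 69.7% and 61.0%. A match describes letters in this window and is not evidence of binding.

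Over the 9 libraries the muscle phosphofructokinase Pfkm was the most abundant member, at 220.1 TPM, followed by Hk1 at 157 TPM and Pfkp at 75.0 TPM. Pfkl at 46.4 TPM and Slc2a4 at 46.0 TPM had nearly equal means with overlapping libraries. Slc2a1 at 33.9 TPM and Pfkfb3 at 25.2 TPM came next, then Hk2 at 17.8 TPM, Pfkfb2 at 15.1 TPM and Slc2a3 at 5.88 TPM. Pfkm lay at the 94.7th percentile of the tested genes and Slc2a3 at the 20.1st.

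**Figure D1:**
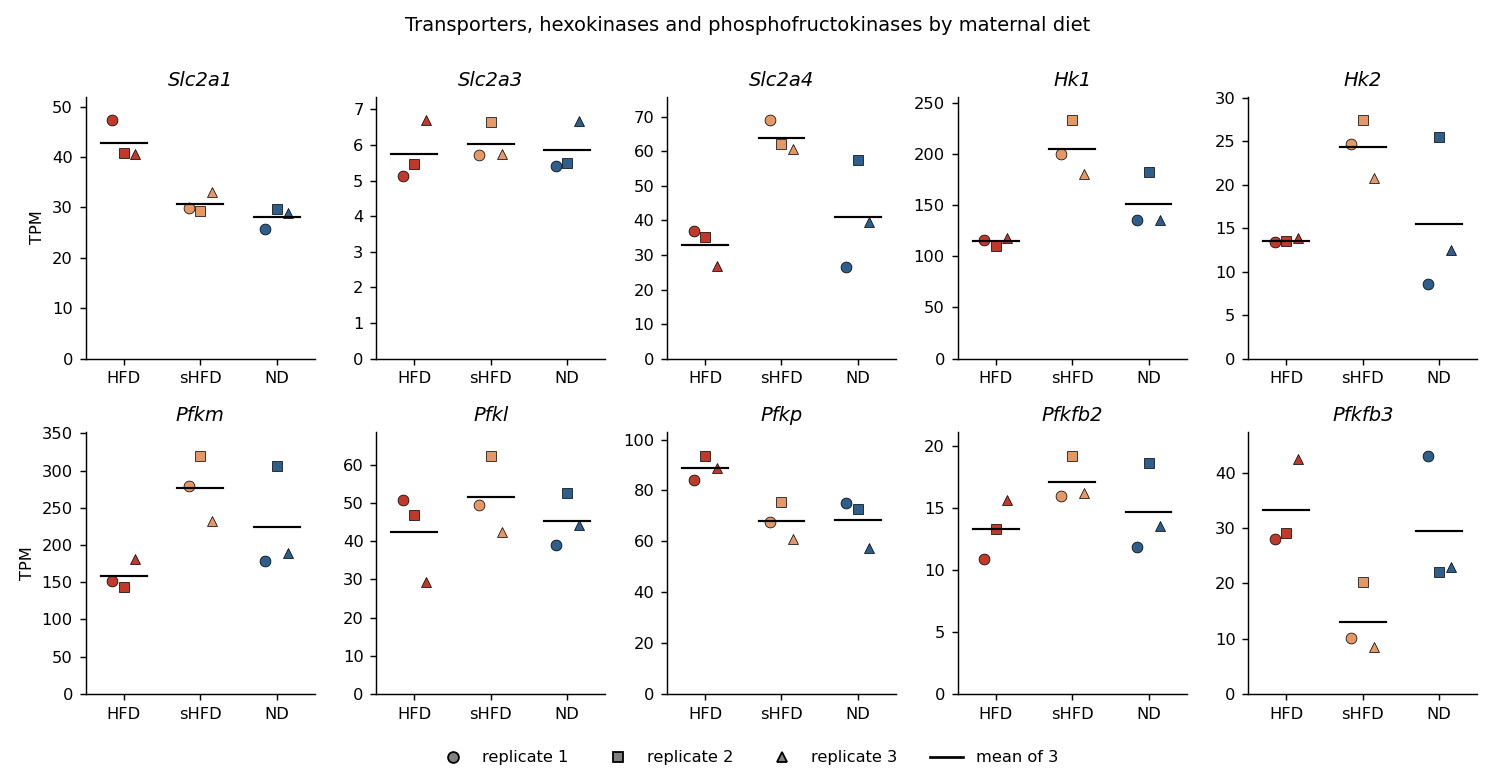
Level in TPM (linear axes from 0) of the 10 genes in each library, with the HFD, sHFD and ND libraries from left to right, symbols for replicate numbers and a bar for the mean of 3. Slc2a1 lies between 40.6 and 47.3 TPM in HFD libraries, above every sHFD and ND library, while Slc2a4, Hk1, Hk2 and Pfkm are highest in sHFD libraries and ND replicate 2.

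Set against ND, 1 member passed the test in HFD cardiomyocytes: Slc2a1 rose, and 0 members fell. Set against sHFD, Slc2a1 and Pfkfb3 rose in HFD cardiomyocytes while Slc2a4, Hk1 and Pfkm fell. Between sHFD and ND 0 members passed with limma, and 4 had an unadjusted p under 0.05. The test was limma on log2(TPM + 1) over all tested genes, two-sided, with Benjamini-Hochberg adjustment at 0.05. All differences below are on that scale, which understates the change of low genes.

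These counts stand beside the share of all tested genes called. In HFD vs ND 10.9% of genes passed, 1.28% higher and 9.59% lower, against 1 of 10 members. In HFD vs sHFD 34.2% passed, 10.3% higher and 23.9% lower, against 5 of 10 members. In sHFD vs ND 0.00732% passed, which is 1 gene, with 1005 at an unadjusted p under 0.05. The libraries did not overlap for 3 members in HFD vs ND, beside 27.9% of all tested genes, for 8 members in HFD vs sHFD, beside 51.3%, and for 2 members in sHFD vs ND, beside 9.4%. The median difference was -0.09 for the members and -0.14 for all tested genes in HFD vs ND. It was -0.33 for the members and -0.16 for all genes in HFD vs sHFD, and 0.20 for the members and 0.00 for all genes in sHFD vs ND. The 3 comparisons share libraries, so their results are not independent.

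The number of genes called rested on single libraries. In HFD vs ND it was 1484, and was 32 without HFD replicate 2, 39 if ND replicate 3 was left out, 127 without HFD replicate 1, 624 without ND replicate 2, 877 without sHFD replicate 3 and 3842 without ND replicate 1. In HFD vs sHFD it was 4665, and was 2696 without HFD replicate 2, 3037 without sHFD replicate 1 and 3092 without sHFD replicate 3. Each ND library was closer to the libraries of another diet than to the other ND libraries, by mean Pearson r of log2 values over tested genes. ND replicate 1 had 0.980 with HFD libraries, 0.962 with the other ND libraries and 0.952 with sHFD libraries. ND replicate 2 had 0.987 with sHFD libraries, 0.945 with HFD libraries and 0.965 with the other ND libraries. For ND replicate 3 the values were 0.981 with sHFD libraries, 0.956 with HFD libraries and 0.976 with the other ND libraries. Scaling moved the balance of directions: with median-ratio scaling 642 genes were higher and 997 lower in HFD vs ND, and 2608 higher and 2600 lower in HFD vs sHFD, and the median of all genes moved to 0.01 and -0.01. With the scaling used here a gene at the median therefore lay at -0.14 or -0.16 in these comparisons.

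**Figure D2:**
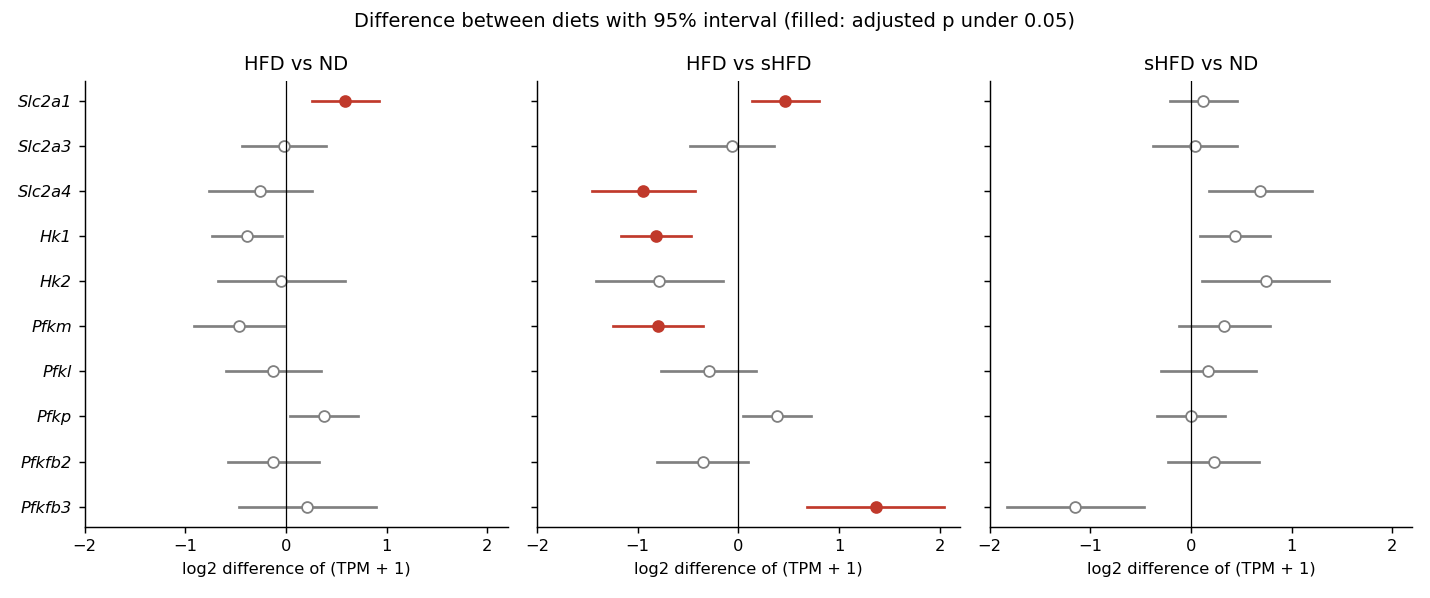
Difference in log2(TPM + 1) of the 10 genes between diets, the first-named diet minus the second, with 95% intervals from limma over 9 libraries; filled symbols passed at an adjusted p under 0.05. Slc2a1 lies right of 0 in both HFD panels and Slc2a4, Hk1 and Pfkm lie left of 0 against sHFD, with Pfkfb3 at 1.36 the largest difference.

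Slc2a1 (chr4:119108745-119137330), the basal transporter GLUT1, had 47.3, 40.8 and 40.6 TPM in HFD libraries, 29.9, 29.2 and 33.0 TPM in sHFD libraries and 25.7, 29.7 and 29.0 TPM in ND libraries. Every HFD library was above every sHFD and ND library, and the sHFD and ND libraries overlapped. The means were 42.9 ± 3.80 TPM in HFD, 30.7 ± 2.02 TPM in sHFD and 28.1 ± 2.15 TPM in ND (SD, n = 3 each). Slc2a1 rose in HFD by 0.59 against ND (SE 0.15, adjusted p = 0.0305), a fold of 1.51, and by 0.47 against sHFD (SE 0.15, adjusted p = 0.0330), a fold of 1.38. Relative to the median of all genes the differences were 0.73 and 0.63. Between sHFD and ND it differed by 0.12 (95% interval -0.21 to 0.46, adjusted p = 0.832).

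The Slc2a1 calls lay near the threshold. Against ND the adjusted p was 0.119 without HFD replicate 1, 0.112 without HFD replicate 2, 0.0501 without sHFD replicate 1, 0.0534 without sHFD replicate 3, 0.0554 without ND replicate 2, 0.104 without ND replicate 3 and 0.0756 with the HFD and ND libraries alone. Against sHFD it was 0.120 without HFD replicate 1, 0.079 without HFD replicate 2, 0.0960 without sHFD replicate 1, 0.0840 without sHFD replicate 2 and 0.0614 without sHFD replicate 3. The direction was the same in all 16 alternatives of each comparison, with differences of 0.52 to 0.74 against ND and 0.40 to 0.63 against sHFD.

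Slc2a4 (chr11:69942286-69948216), the insulin-responsive transporter GLUT4, had 37.0, 35.2 and 26.9 TPM in HFD libraries, 69.0, 62.2 and 60.8 TPM in sHFD libraries and 26.4, 57.5 and 39.6 TPM in ND libraries. The HFD and sHFD libraries did not overlap, and the ND libraries ran from below the lowest HFD library to just under the sHFD libraries. It fell in HFD against sHFD by 0.95 (SE 0.24, adjusted p = 0.00979), a fold of 0.519, and the call held in all 16 alternatives. Against ND the difference was -0.25 (95% interval -0.76 to 0.25, adjusted p = 0.497). This value turned on single ND libraries: it was -0.53 without ND replicate 1 (adjusted p = 0.0611) and 0.02 without ND replicate 2 (adjusted p = 0.972). Every sHFD library was above every ND library, with a difference of 0.69 (adjusted p = 0.672), and without ND replicate 2 it was 0.96 (adjusted p = 0.0321).

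Slc2a3 (chr6:122727809-122802363), the high-affinity transporter GLUT3 best known from neurons, had 5.13, 5.46 and 6.69 TPM in HFD libraries, 5.71, 6.64 and 5.75 TPM in sHFD libraries and 5.40, 5.48 and 6.67 TPM in ND libraries. The 3 diets overlapped. The difference of HFD from ND was -0.02 with a 95% interval of -0.44 to 0.40, and that of HFD from sHFD was -0.06 with an interval of -0.48 to 0.36.

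As a share of the summed TPM of the 3 transporters, Slc2a1 made up 52.6 ± 2.33% in HFD, 30.5 ± 2.37% in sHFD and 38.4 ± 6.31% in ND (SD, n = 3 each). Slc2a4 made up 40.3 ± 3.60% in HFD, 63.5 ± 2.45% in sHFD and 53.5 ± 8.09% in ND. Slc2a1 was the larger of the 2 in HFD and Slc2a4 in sHFD and ND by these means. The sum of the 3 averaged 81.6 TPM in HFD, 100.7 TPM in sHFD and 75.1 TPM in ND.

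Hk1 (chr10:62268855-62379920), the hexokinase found in most tissues and attached to mitochondria, had 116, 110 and 117 TPM in HFD libraries, 200, 233 and 180 TPM in sHFD libraries and 135, 182 and 135 TPM in ND libraries. HFD libraries lay below every sHFD and ND library. It fell in HFD against sHFD by 0.82 (SE 0.16, adjusted p = 0.00322), a fold of 0.565, and the call held in all 16 alternatives. Against ND the difference was -0.38 (95% interval -0.73 to -0.04), which did not pass after adjustment (limma, adjusted p = 0.131). Between sHFD and ND it was 0.44 (adjusted p = 0.672), with overlapping libraries.

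Hk2 (chr6:82725025-82774454), the hexokinase that insulin induces in adult muscle, had 13.4, 13.5 and 13.9 TPM in HFD libraries, 24.7, 27.4 and 20.8 TPM in sHFD libraries and 8.55, 25.5 and 12.5 TPM in ND libraries. HFD libraries lay close together and below every sHFD library, and the ND libraries reached beyond HFD on both sides. The difference of HFD from sHFD was -0.79 (95% interval -1.42 to -0.16) and just missed the threshold (adjusted p = 0.0520). It passed without ND replicate 1 (adjusted p = 0.0148), without ND replicate 2 (adjusted p = 0.00568) and with the HFD and sHFD libraries alone (adjusted p = 0.00261). Against ND the difference of HFD was -0.05 (95% interval -0.68 to 0.58), and it was 0.36 without ND replicate 2 and -0.37 without ND replicate 1. Between sHFD and ND it was 0.74 (adjusted p = 0.672), and without ND replicate 2 it was 1.15 (adjusted p = 0.0162).

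Hk1 made up 89.4% of the summed TPM of the 2 hexokinases in HFD, 89.4% in sHFD and 91.1% in ND. Their sum averaged 128 TPM in HFD, 229 TPM in sHFD and 166 TPM in ND.

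Pfkm (chr15:98092589-98132447), the muscle subunit of phosphofructokinase, had 151, 143 and 181 TPM in HFD libraries, 279, 320 and 232 TPM in sHFD libraries and 179, 306 and 189 TPM in ND libraries. HFD libraries were below every sHFD library, and HFD replicate 3 overlapped the ND libraries. It fell in HFD against sHFD by 0.80 (SE 0.21, adjusted p = 0.0116), a fold of 0.575. The call was lost without HFD replicate 2 (adjusted p = 0.0516) and without sHFD replicate 2 (adjusted p = 0.05005). Against ND the difference was -0.47 (95% interval -0.91 to -0.02) and did not pass (adjusted p = 0.152), and between sHFD and ND it was 0.33 (adjusted p = 0.699).

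Pfkp (chr13:6579874-6649060), the subunit first described in platelets, had 84.0, 93.6 and 88.8 TPM in HFD libraries, 67.7, 75.3 and 60.8 TPM in sHFD libraries and 75.1, 72.7 and 57.2 TPM in ND libraries. Every HFD library was above every sHFD and ND library. The differences were nonetheless not called: 0.38 against ND (95% interval 0.04 to 0.72, adjusted p = 0.122) and 0.38 against sHFD (95% interval 0.05 to 0.72, adjusted p = 0.0723). With median-ratio scaling Pfkp passed in both, at 0.54 against ND (adjusted p = 0.0323) and 0.55 against sHFD (adjusted p = 0.00926). The sHFD and ND means, 68.0 ± 7.25 and 68.3 ± 9.69 TPM (SD, n = 3 each), were nearly the same, with a difference of 0.00 and a 95% interval of -0.34 to 0.33.

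Pfkl (chr10:77986947-78009807), the liver subunit, had 50.9, 46.8 and 29.3 TPM in HFD libraries, 49.5, 62.4 and 42.5 TPM in sHFD libraries and 39.0, 52.6 and 44.3 TPM in ND libraries. The diets overlapped, and HFD replicate 3 was the lowest library. The difference of HFD was -0.12 from ND (95% interval -0.60 to 0.35) and -0.30 from sHFD (95% interval -0.77 to 0.18).

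The summed TPM of the 3 subunits was 289 ± 8.08 in HFD, 397 ± 60.9 in sHFD and 338 ± 80.7 in ND (SD, n = 3 each). Pfkm made up 54.6 ± 5.20% of it in HFD, 69.9 ± 0.61% in sHFD and 65.7 ± 4.99% in ND. Pfkp made up 30.7 ± 2.01% in HFD, 17.2 ± 0.84% in sHFD and 20.7 ± 4.49% in ND. The enzyme is a tetramer of these subunits, and these shares are of transcripts only.

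Pfkfb3 (chr2:11471430-11554071), the inducible enzyme that mainly makes the activator of phosphofructokinase, had 28.0, 29.2 and 42.6 TPM in HFD libraries, 10.1, 20.3 and 8.49 TPM in sHFD libraries and 43.1, 22.1 and 23.0 TPM in ND libraries. The sHFD libraries were below every HFD and ND library, and HFD and ND overlapped. It rose in HFD against sHFD by 1.36 (SE 0.32, adjusted p = 0.00679), a fold of 2.57, and the call held in all 16 alternatives, at 1.13 to 1.72. Against ND the difference of HFD was 0.21 (95% interval -0.47 to 0.89, adjusted p = 0.686). The difference of sHFD from ND was -1.15 (SE 0.32), the largest difference of a member in that comparison, and it did not pass (limma, adjusted p = 0.670).

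Pfkfb2 (chr1:130689043-130729253), the form typical of heart, had 10.9, 13.3 and 15.7 TPM in HFD libraries, 16.0, 19.2 and 16.3 TPM in sHFD libraries and 11.8, 18.7 and 13.6 TPM in ND libraries. HFD libraries were below every sHFD library, and the ND libraries overlapped both. The difference of HFD was -0.35 from sHFD (95% interval -0.81 to 0.10, adjusted p = 0.203) and -0.13 from ND (95% interval -0.58 to 0.32, adjusted p = 0.721).

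Ratios of TPM of related genes within a library do not depend on how the library is scaled. For 5 such ratios the 3 diets were compared by an exact permutation test of the F statistic over 1680 arrangements of the libraries, which can give no p below 0.00357, with adjustment over the 5. The ratio of Slc2a1 to Slc2a4 was 1.28, 1.16 and 1.51 in HFD libraries, 0.433, 0.470 and 0.543 in sHFD libraries and 0.973, 0.517 and 0.732 in ND libraries. Every HFD library was above 1 and every other library below it. The geometric means were 1.31 in HFD, 0.480 in sHFD and 0.717 in ND (exact p = 0.00714, adjusted p = 0.0268).

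The ratio of Pfkp to Pfkm was 0.555, 0.653 and 0.492 in HFD libraries, 0.242, 0.236 and 0.262 in sHFD libraries and 0.420, 0.237 and 0.303 in ND libraries. Every HFD library was above every other library, and the diets differed (exact permutation p = 0.0107, adjusted p = 0.0268). The geometric means were 0.563 in HFD, 0.246 in sHFD and 0.311 in ND. A pair of diets with 3 libraries each cannot reach a two-sided exact p below 0.1, so no pair was called.

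Both ratio calls depended on single libraries. The adjusted exact p of each was 0.0952, 0.0893 and 0.0670 when HFD replicate 1, 2 or 3 was left out, and 0.0536 without sHFD replicate 1 or sHFD replicate 2. It was 0.00893 for each without ND replicate 2.

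The ratio of Pfkfb3 to Pfkfb2 had a geometric mean of 2.48 in HFD, 0.702 in sHFD and 1.94 in ND, and every sHFD library was below every other library. It missed the threshold after adjustment (exact permutation p = 0.0321, adjusted p = 0.0536), and without ND replicate 1 the adjusted p was 0.0268. The ratio of Hk2 to Hk1 had a geometric mean of 0.119 in HFD, 0.119 in sHFD and 0.0934 in ND, with ND libraries from 0.0631 to 0.140 on both sides of all others (adjusted exact p = 0.339). The ratio of Pfkl to Pfkm was 0.261 in HFD, 0.185 in sHFD and 0.206 in ND (adjusted exact p = 0.339).

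**Figure D3:**
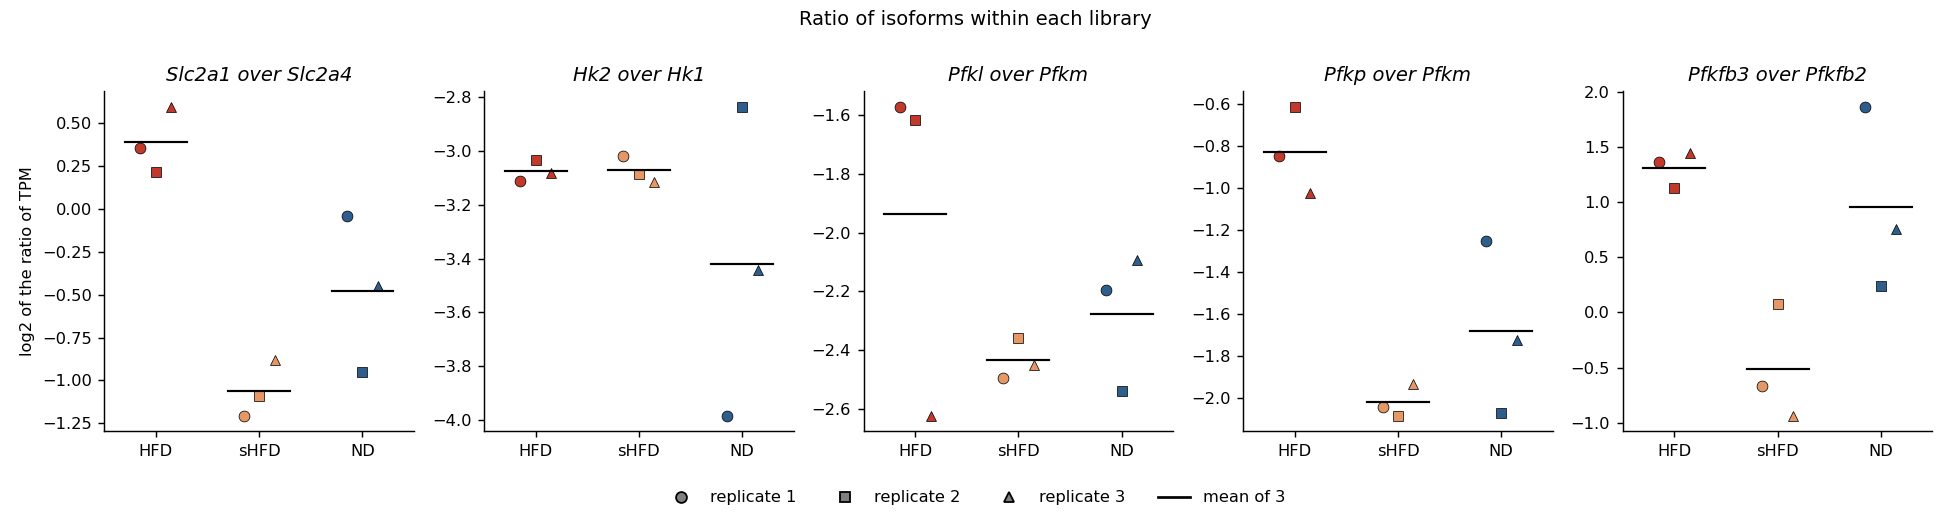
Log2 of the ratio of TPM of related genes in each library, by diet, with symbols for replicate numbers and a bar for the mean of 3; the axes do not start at 0 and differ between panels. For Slc2a1 over Slc2a4 and Pfkp over Pfkm every HFD library lies above every sHFD and ND library; for Hk2 over Hk1 the ND libraries span all the others.

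The isolates held RNA of several cell types, and in bulk samples fewer cells of a type and less RNA per cell cannot be told apart. All 15 cardiomyocyte markers were measured, and their summed level was 32007 to 40531 TPM in HFD libraries, 45705 to 61782 TPM in sHFD libraries and 26675 to 45685 TPM in ND libraries. HFD libraries were thus below sHFD libraries in this sum, as they were for Slc2a4, Hk1 and Pfkm. ND replicate 1 had the lowest sum of the 9 libraries. Its Slc2a4, 26.4 TPM, was also below every HFD library. In contrast its Hk1, 135 TPM, was above every HFD library, and its Pfkm, 179 TPM, lay within the HFD range. Against sHFD 26.7% of the 15 markers were called in HFD, beside 34.2% of all tested genes. Of the 15, Myh7, the slow myosin heavy chain, rose in HFD by 2.69 against sHFD (adjusted p = 0.000703), and 3 fell: the ventricular light chain Myl2, the light chain Myl3 and the calcium pump inhibitor Pln. These 3 calls were lost in 2 or 3 of 9 fits that left out a library: Myl2 without HFD replicate 3, sHFD replicate 1 or sHFD replicate 3 (adjusted p up to 0.0981), Myl3 without HFD replicate 3 or sHFD replicate 1 (up to 0.0766), and Pln without HFD replicate 1, sHFD replicate 1 or sHFD replicate 2 (up to 0.0595). The part of cardiomyocyte content in the differences of the members was not tested.

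Markers of other cells were present throughout, and no listed marker was 0 in every library. The calls below were not followed through the fits that left out a library. Their counts stand beside 1.28% of all tested genes higher and 9.59% lower in HFD against ND. Against sHFD these shares were 10.3% higher and 23.9% lower. Of 15 immune markers 13 fell in HFD against ND, and 1 rose and 7 fell against sHFD (Cx3cr1, in both counts, averaged 0.627 TPM in HFD and was tested only through the other diets), with sums of 338 to 399 TPM in HFD libraries, 463 to 577 TPM in sHFD libraries and 588 to 840 TPM in ND libraries. Of 10 smooth muscle and pericyte markers 1 rose and 4 fell against ND, and 1 rose and 7 fell against sHFD. Their sums were 1494 to 1728 TPM in HFD, 1775 to 2573 TPM in sHFD and 1388 to 1652 TPM in ND libraries. Of 9 red cell markers tested 1 fell against ND (7 at an unadjusted p under 0.05, median difference -0.79) and 6 against sHFD. Their sums were 4271 to 7734 TPM in HFD, 9327 to 12986 TPM in sHFD and 8065 to 18784 TPM in ND libraries.
Endothelial markers (12) gave 0 calls against ND (2 at an unadjusted p under 0.05) and 1 fall against sHFD, with sums of 4235 to 4921 TPM in HFD, 3943 to 4453 TPM in sHFD and 3953 to 6018 TPM in ND libraries. Fibroblast markers (10) gave 0 calls against ND (2 unadjusted) and 1 rise against sHFD, with sums of 9445 to 10438 TPM in HFD, 7832 to 10254 TPM in sHFD and 9595 to 11855 TPM in ND libraries. Platelet markers (5) gave 0 calls in both (1 and 3 unadjusted) and summed to 34.6 to 39.2 TPM in HFD, 43.5 to 64.6 TPM in sHFD and 40.4 to 68.8 TPM in ND libraries. The part of these cells in the differences of the members was not tested.

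Immediate-early and heat-shock genes, which respond within minutes to handling and stress of cells, were higher in HFD than in sHFD libraries, as was Pfkfb3. All 15 of them rose in HFD against sHFD, with a median difference of 1.83, beside 10.3% of all tested genes higher. The near-identical heat-shock genes Hspa1a and Hspa1b, between which reads could be split, are uncertain: the call of Hspa1a was lost without any single HFD or sHFD library and that of Hspa1b without HFD replicate 3 or sHFD replicate 2 (adjusted p up to 0.105). The other 13 held in every fit that left out a library. The mean log2 level of the 15 was 8.18, 8.11 and 8.78 in HFD libraries, 6.28, 6.40 and 6.45 in sHFD libraries and 8.58, 6.26 and 7.58 in ND libraries. ND replicate 1 and HFD replicate 3 were the 2 libraries highest in this list and in Pfkfb3, and the sHFD libraries were low in both. ND replicate 2 was the lowest library in the list, at 6.26, while its Pfkfb3, 22.1 TPM, was above every sHFD library. Pfkfb3 was 20.3 TPM in sHFD replicate 2, against 10.1 and 8.49 TPM in sHFD replicates 1 and 3. Of the 15, 0 passed in HFD vs ND (7 at an unadjusted p under 0.05) and 0 in sHFD vs ND (12 unadjusted, median -1.20). Within ND the libraries ranked the other way in Slc2a4, Hk2 and Pfkm, which were lowest in replicate 1 and highest in replicate 2. The ratios of Slc2a1 to Slc2a4 and of Pfkp to Pfkm ranked with the list there. Within HFD, replicate 3 was highest in the list and also in Hk2 and Pfkm. The part of this response in the differences of Pfkfb3, of these other members and of the ratios was not tested.

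**Figure D4:**
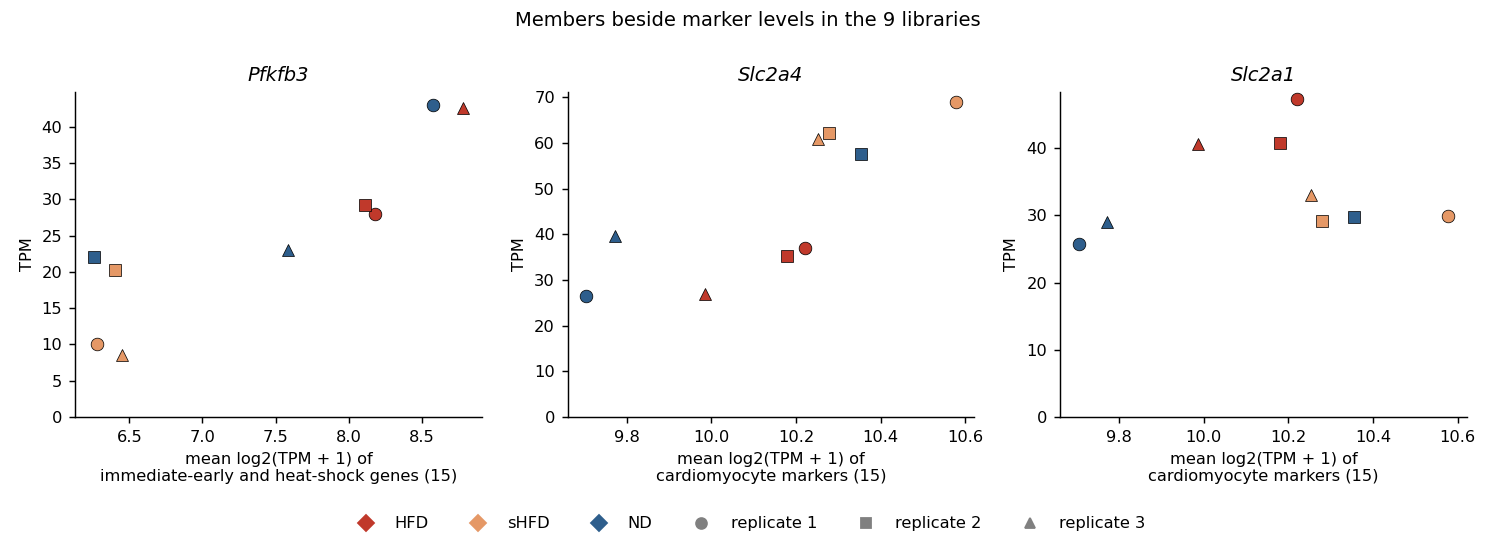
Level in TPM of Pfkfb3, Slc2a4 and Slc2a1 in the 9 libraries against the mean log2(TPM + 1) of immediate-early and heat-shock genes or of cardiomyocyte markers, coloured by diet with symbols for replicate numbers. The 2 libraries highest in the immediate-early list, HFD replicate 3 and ND replicate 1, are highest in Pfkfb3 at 42.6 and 43.1 TPM, and the HFD libraries are highest in Slc2a1 at 40.6 to 47.3 TPM.

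Of 23 other genes of glucose entry and its phosphorylation 13 were tested. In HFD vs ND 0 rose and 4 fell, 30.8% of those tested beside 10.9% of all tested genes, which also passed more often lower (9.59%) than higher (1.28%). In HFD vs sHFD 0 rose and 7 fell, 53.8% beside 34.2% of all tested genes, of which 23.9% were lower and 10.3% higher. These counts include Fbp2 in both comparisons, Hk3 in HFD vs ND and Slc2a12 in HFD vs sHFD, which averaged under 1 TPM in HFD and reached the minimum for testing only through the diets in which they were higher, so a lower HFD value is built into their selection. Slc2a8, an intracellular glucose transporter, had 11.4, 12.6 and 15.3 TPM in HFD libraries, 24.9, 25.0 and 22.0 TPM in sHFD libraries and 20.3, 22.4 and 20.2 TPM in ND libraries, so that HFD did not overlap the others. It fell in HFD by 0.83 against sHFD (adjusted p = 0.00406), held in all 9 fits that left out a library, and by 0.65 against ND (adjusted p = 0.0328), held in 3 of 9 and lost without HFD replicate 1 or 2, sHFD replicate 1 or 3, or ND replicate 2 or 3 (adjusted p up to 0.137). Fbp2, the muscle fructose bisphosphatase that runs against phosphofructokinase, averaged 0.650 TPM in HFD, 5.58 TPM in sHFD and 3.18 TPM in ND, and is given as levels only for that reason. Tigar, which lowers the activator made by Pfkfb enzymes, averaged 6.18 TPM in HFD and 15.4 TPM in sHFD and fell by 1.19 (adjusted p = 0.00525), which also held in all 9. Hk3, a hexokinase of blood cells, averaged 0.697 TPM in HFD and 2.15 TPM in ND, again as levels only. Pfkfb4 averaged 2.06 TPM in HFD and 4.40 TPM in ND and fell by 0.80 (adjusted p = 0.0410). Slc2a2, Slc2a5, Slc2a6, Slc5a1, Slc5a2, Hkdc1, Fbp1 and G6pc were among the genes of this list that had means under 1 TPM and were not tested.

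Of 15 tested genes of lower glycolysis and lactate, the steps below phosphofructokinase, 1 rose and 0 fell in HFD vs ND (median 0.32). That is 6.67%, beside 10.9% of all tested genes, which were 1.28% higher and 9.59% lower. In HFD vs sHFD 0 passed, beside 34.2% of all tested genes (3 at an unadjusted p under 0.05, median 0.03). The gene that rose in HFD vs ND was Pgk1, phosphoglycerate kinase, at 739 TPM in HFD and 450 TPM in ND, with a difference of 0.68 (adjusted p = 0.0449). The call held in 1 of 9 fits that left out a library, that without HFD replicate 3, and the adjusted p ranged up to 0.194 in the others.

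Of 22 genes of insulin signalling and GLUT4 traffic, 3 rose and 4 fell in HFD against sHFD, 31.8% beside 34.2% of all tested genes. Rab8a, a small GTPase of GLUT4 vesicle traffic, averaged 31.2 TPM in HFD and 63.5 TPM in sHFD and fell by 1.00 (adjusted p = 0.00285). Stx4a, the surface docking protein for GLUT4 vesicles, averaged 56.5 TPM in HFD and 94.4 TPM in sHFD and fell by 0.73 (adjusted p = 0.00400). Both held in all 9 fits that left out a library. The insulin receptor substrate Irs2 rose by 1.36 (adjusted p = 0.00892), the regulatory kinase subunit Pik3r1 by 0.97 (adjusted p = 0.00440), and Lnpep, an aminopeptidase carried in GLUT4 vesicles, by 1.23 (adjusted p = 0.00872), and these also held in all 9. Akt2, the kinase that relays insulin to GLUT4, differed by -0.51 (adjusted p = 0.0265), a call lost without HFD replicate 1 or 2 or sHFD replicate 1 or 2 (adjusted p up to 0.112). Myo1c, a motor of GLUT4 vesicles, differed by -0.55 (adjusted p = 0.0130), a call lost without HFD replicate 2 or sHFD replicate 2 (adjusted p up to 0.0603). Against ND Lnpep rose by 1.22 (adjusted p = 0.0254), Rab8a fell by 0.79 (adjusted p = 0.0240) and Stx4a fell by 0.68 (adjusted p = 0.0179).

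Of 23 glycogen genes, 0 rose and 7 fell in HFD against sHFD, 30.4% beside 34.2% of all tested genes (10.3% higher and 23.9% lower). They include the muscle glycogen synthase Gys1 and the phosphorylase kinase subunits Phka2 and Phkb. Against ND 0 passed with limma and 4 had an unadjusted p under 0.05. Phka2 averaged 20.1 TPM in HFD and 33.9 TPM in sHFD and fell by 0.76 (adjusted p = 0.0216), and the call was lost without HFD replicate 1 or 2 or sHFD replicate 1 or 2 (adjusted p up to 0.102). The call of Gys1 was lost without any of the HFD replicates or without sHFD replicate 1 or 2 (adjusted p up to 0.126), and that of Phkb without HFD replicate 1 or 2 or sHFD replicate 2 or 3 (adjusted p up to 0.118).

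Of 18 genes that lead glucose or fructose phosphate into side branches, 2 rose and 4 fell in HFD against sHFD, which is 33.3% beside 34.2% of all tested genes, and 0 rose and 3 fell against ND, 16.7% beside 10.9%. G6pdx, which opens the pentose phosphate pathway, averaged 12.0 TPM in HFD and 24.6 TPM in sHFD and fell by 0.98 (adjusted p = 0.00230). H6pd, its counterpart in the endoplasmic reticulum, averaged 13.6 TPM in HFD and 31.8 TPM in sHFD and fell by 1.17 (adjusted p = 0.00262). Of the pair that adds and removes the sugar N-acetylglucosamine on proteins, Ogt fell by 1.33 (adjusted p = 0.00351) and Oga rose by 1.58 (adjusted p = 0.00271). These 4 calls held in all 9 fits that left out a library. Uap1 differed by 0.64 and was lost without HFD replicate 2, sHFD replicate 1 or sHFD replicate 3 (adjusted p up to 0.0991), and Pgd at -0.40 held in 2 of 9, those without ND replicate 1 or ND replicate 2 (adjusted p up to 0.143 in the others). Against ND G6pdx fell by 0.80 (adjusted p = 0.0176), H6pd by 0.83 (adjusted p = 0.0305) and Ogt by 1.08 (adjusted p = 0.0250).

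Slc2a1 and Pfkfb3 are among the known targets of hypoxia-inducible factors, and are named here because they rose in HFD against sHFD. Members that fell or did not change were not searched for such targets. Of 21 hypoxia response genes, 6 rose and 1 fell in HFD against sHFD, 33.3% beside 34.2% of all tested genes, and 2 rose and 0 fell against ND, 9.52% beside 10.9%. Taken over both directions these shares are near those of all genes. By direction, 10.3% of all tested genes were higher and 23.9% lower against sHFD. Against ND 1.28% were higher and 9.59% lower. Ddit4, an inhibitor of mTOR signalling, averaged 214 TPM in HFD and 51.8 TPM in sHFD and rose by 2.06 (adjusted p = 0.00341). Adm, the peptide adrenomedullin, averaged 36.4 TPM in HFD and 19.5 TPM in sHFD and rose by 0.87 (adjusted p = 0.00271). Both calls held in all 9 fits that left out a library. Ddit4 differed by 1.08 in HFD vs ND (limma, adjusted p = 0.0984) and by -0.98 in sHFD vs ND (adjusted p = 0.672), and was called in neither. The medians of the immediate-early and heat-shock list in these comparisons were 0.76 and -1.20. Vegfa averaged 62.1 TPM in HFD, 88.5 TPM in sHFD and 63.9 TPM in ND, and was not called. The gene that fell, Ndrg1, differed by -0.52 and was lost without HFD replicate 1 or 2 or sHFD replicate 1 or 2 (adjusted p up to 0.126). Against ND Bnip3, a mitophagy receptor, rose by 0.86 (adjusted p = 0.0199) and Pdk1, which blocks pyruvate entry into the citric acid cycle, by 0.60 (adjusted p = 0.0443). The call of Bnip3 held in 6 of 9 fits that left out a library and that of Pdk1 in 2 of 9. The part of a hypoxia response in the differences of the members was not tested.

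Of 21 regulators of glucose and energy use, 4 rose and 4 fell in HFD against sHFD, 38.1% beside 34.2% of all tested genes. Against ND 1 rose and 0 fell, 4.76% beside 10.9%, of which 1.28% were higher and 9.59% lower. Klf15, a transcription factor of metabolic genes, had 48.1, 43.8 and 62.5 TPM in HFD libraries, 19.8, 16.9 and 13.0 TPM in sHFD libraries and 28.8, 14.0 and 21.7 TPM in ND libraries. HFD libraries were above all others. Klf15 rose in HFD by 1.58 against sHFD (adjusted p = 0.00151), held in all 9 fits that left out a library, and by 1.26 against ND (adjusted p = 0.0132), lost without HFD replicate 1, HFD replicate 2 or ND replicate 3 (adjusted p up to 0.0646). The growth-promoting transcription factor Myc averaged 83.1 TPM in HFD and 21.6 TPM in sHFD and rose by 1.93 (adjusted p = 0.00268), which held in all 9. It differed by 0.98 in HFD vs ND (limma, adjusted p = 0.0917) and by -0.95 in sHFD vs ND (adjusted p = 0.672). The immediate-early and heat-shock list had medians of 0.76 and -1.20 there, and the part of that response in Myc was not tested. Against sHFD Arrdc4 and Mlxip rose too, by 0.95 and 0.90, and Mlxipl, Prkaa1, Prkag2 and Mtor fell. Prkaa1, a catalytic subunit of the energy sensor AMPK, fell by 1.38 (adjusted p = 0.00415) and held in all 9, as did Arrdc4. Mlxip was lost without HFD replicate 3, sHFD replicate 1 or sHFD replicate 3, Mlxipl without HFD replicate 1 or 2 or sHFD replicate 1 or 2, Prkag2 without sHFD replicate 2, and Mtor without HFD replicate 2 or sHFD replicate 2 (adjusted p up to 0.0802).

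The calls of these lists in HFD vs ND, 14 in all, were each lost when HFD replicate 1, HFD replicate 2 or ND replicate 3 was left out (adjusted p up to 0.198), and some also without other libraries.

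Of all 7 of these lists 0 genes passed in sHFD vs ND with limma. At an unadjusted p under 0.05 the counts were 2 of 13 for other glucose entry, 2 of 15 for lower glycolysis, 0 of 22 for insulin and GLUT4 traffic, 3 of 23 for glycogen, 1 of 18 for the side branches, 3 of 21 for hypoxia and 2 of 21 for the regulators.

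**Figure D5:**
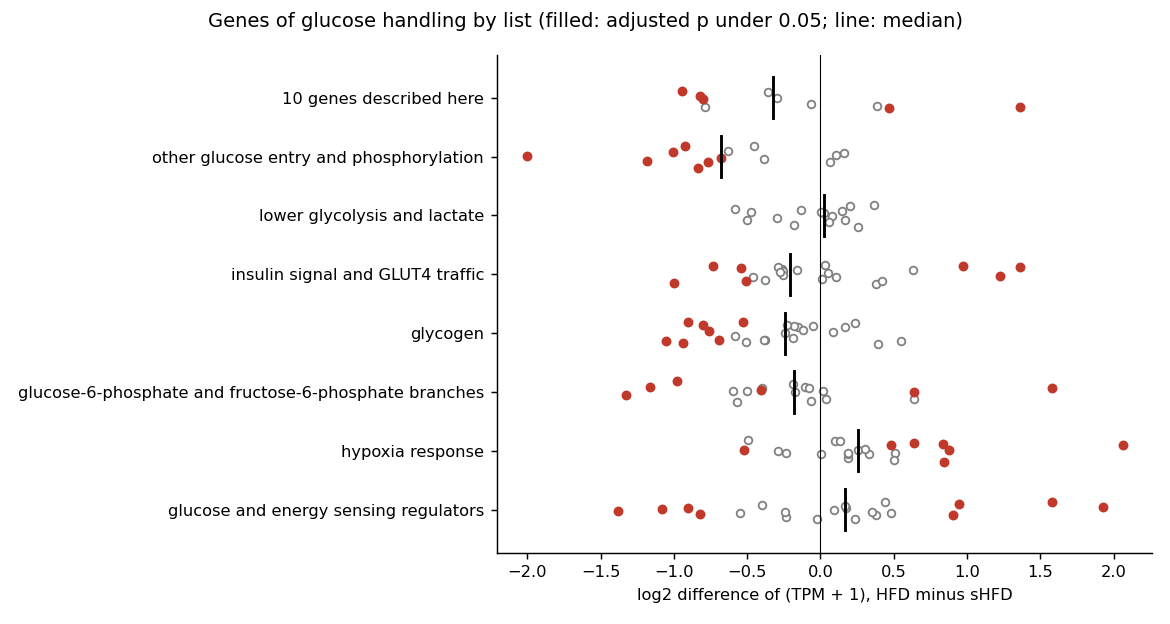
Difference in log2(TPM + 1), HFD minus sHFD, of the tested genes of each list, with filled points for an adjusted p under 0.05 and a bar for the list's median; points are spread vertically only for visibility. The other genes of glucose entry have 7 filled points, all left of 0, and lower glycolysis has 0.

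Genes whose log2 levels followed a member most closely over the 9 libraries were taken from the 11215 genes averaging 5 TPM or more. For Slc2a1 they were Gm4737 (Pearson r 0.946), Pard6b (0.940) and Cryab (0.918). For Hk2 they included Sdha (0.988), a subunit of succinate dehydrogenase, and Grhpr (0.987), a glyoxylate reductase, and for Pfkm they were Cand2 (0.992), Mtor (0.992) and Acacb (0.990). Sdha had 421, 424 and 436 TPM in HFD libraries, 654, 663 and 561 TPM in sHFD libraries and 364, 649 and 410 TPM in ND libraries, with ND replicate 2 among the sHFD libraries as for Hk2. These correlations are descriptions over libraries that share diet and isolation, and carry no test.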

How the data were processed

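Cardiomyocyte RNA of 9 libraries, 3 per maternal diet, was measured by sequencing. The authors deposited TPM for 18738 genes, each column summing to 1000000 within rounding. RSEM 1.3.1 and GRCm38 are named, with no role, in the submitters' processing notes, and what aligned the reads, and to which annotation, is not given in the sources used here. Per the labels' protocols, mRNA was isolated from total RNA first. TPM keeps no read number, so depth is unknown and no counting interval is given. Columns named CON, MID and HIGH were read as ND, sHFD and HFD with their numbers. TPM is relative to the listed genes, so a change in abundant genes moves all others.

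Values were taken as log2(TPM + 1), a pseudocount of 1, and the 13655 genes whose mean reached 1 TPM were fitted with limma 3.58.1 (R 4.3.3) on all 9 libraries, with an intensity trend, 6 residual degrees of freedom and Benjamini-Hochberg adjustment at 0.05. The fit was tested on simulated data. Alternatives were a pseudocount of 0.1, no filter, median-ratio scaling, quantile normalization, 2 diets only, a replicate block, no variance trend and leaving out each library. The members and gene lists were chosen with earlier results of these data known. Named genes were all members, the 2 tested genes per list of smallest p for each comparison (given where a result turns on them) and the 3 most like Slc2a1, Hk2 and Pfkm. Pfkfb4, Slc2a12, Hspa1a, Irs2, Pik3r1, Lnpep, Akt2, Uap1, Pgd, Ndrg1, Mlxip, Mlxipl, Prkaa1, Mtor and the cell markers named were chosen after their values were seen. Promoter windows and gene positions are from RefSeq, GRCm38.p6. Some genes that meet the naming rule are not reported here.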

Additional observations from a re-analysis of the deposited data

How the results depend on the processing

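Of the 16 alternatives for each of the 10 members, 138 of 160 values in HFD vs ND, 143 of 160 in HFD vs sHFD and 152 of 160 in sHFD vs ND kept direction and side of the threshold. The calls of Slc2a4, Hk1 and Pfkfb3 in HFD vs sHFD held in all 16. Values near 0 changed sign. In HFD vs ND median-ratio scaling gave 0.11 for Slc2a3, 0.10 for Hk2, 0.030 for Pfkl and 0.020 for Pfkfb2, and quantile normalization gave 0.32 for Slc2a3, 0.17 for Hk2 and 0.10 for Pfkfb2. In HFD vs sHFD Slc2a3 was 0.083 and 0.31 with these scalings, and in sHFD vs ND Pfkp was 0.036 with quantile normalization. Leaving out libraries, values in HFD vs ND ranged from -0.12 to 0.063 for Slc2a3, -0.53 to 0.016 for Slc2a4, -0.37 to 0.36 for Hk2, -0.27 to 0.11 for Pfkl and -0.26 to 0.048 for Pfkfb2. Those in HFD vs sHFD ranged from -0.16 to 0.0057 for Slc2a3, and those in sHFD vs ND from -0.020 to 0.12 for Slc2a3 and -0.12 to 0.073 for Pfkp. The cause was not tested.

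The genes called in HFD vs ND, 1484, were 763 with no filter, 420 with 2 diets only and 32 to 3842 leaving out a library, and the members called, 1, were 2 with median-ratio scaling, 0 with 2 diets only and 0 to 1 leaving out a library. In HFD vs sHFD leaving out a library gave 2696 to 5458 genes and 3 to 6 members. In sHFD vs ND the 1 gene was 0 with a pseudocount of 0.1 or no filter, 2 with 2 diets only and 0 to 360 leaving out a library, and members numbered 0 to 2; the 360 and the 2 were without ND replicate 2. With fewer libraries the adjusted exact p ranged from 0.00893 to 0.0952 for both Slc2a1 over Slc2a4 and Pfkp over Pfkm, 0.0536 to 0.886 for Hk2 over Hk1, 0.0670 to 0.707 for Pfkl over Pfkm and 0.0268 to 0.119 for Pfkfb3 over Pfkfb2. With a pseudocount of 1 it was 0.321 for Hk2 over Hk1, whose sign turned, and 0.0476 for Pfkfb3 over Pfkfb2.

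The labels do not say what a replicate number marks, and no pairing was assumed. Deviations of same-numbered libraries correlated at -0.085, 0.25 and -0.29 between HFD and ND, 0.41, -0.035 and -0.097 between HFD and sHFD, and 0.013, 0.16 and 0.13 between sHFD and ND. Differently numbered libraries were not set beside these, so the values cannot decide whether replicate numbers pair the samples. With the replicate block 1686 genes passed in HFD vs ND, 4722 in HFD vs sHFD and 0 in sHFD vs ND, Hk2 had an adjusted p of 0.0386 in HFD vs sHFD, and the ratios Slc2a1 over Slc2a4 and Pfkp over Pfkm had an adjusted p of 0.0694, where the block allows no exact p below 0.0278.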
